A study of Mus musculus with 6 samples.

Results

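The genes described here are 10 markers of vascular endothelial cells, the cells that line blood vessels: Pecam1, Cdh5, Esam, Cldn5, Tek, Tie1, Eng, Emcn, Vwf and Erg. They were chosen by name, and 10 of 10 were found among the 45777 genes of the count table. All 10 also passed the filter on low counts, which kept 17210 genes.

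B16F10, a mouse melanoma cell line, was injected into the hind footpad or the flank skin, and RNA of 3 footpad tumors and 3 flank skin tumors was sequenced, with 1 library for each tumor. The study compared the sites to ask how the transcriptome of a melanoma under the load of body weight differs from that of a melanoma in unloaded skin. The sample labels give every host as a Foxn1-/- mouse at an age of 8 weeks. If the labels hold, both groups lacked the thymus-dependent T cells of normal mice. The series title, in contrast, calls the grafts syngeneic, and for syngeneic grafts of this line the study's methods name C57BL/6J mice, while their section on RNA sequencing names no strain. The methods also describe injection of these cells at several sites of a mouse at the same time, so that footpad and flank skin tumors may share mice, but the labels do not tie the tumors to mice. The methods speak of isolated tumor cells and describe no step that separates them from host cells, whereas the labels describe removal of whole tumors. The 10 genes are used to mark endothelium, although other cells, melanoma cells among them, can express some of them. In bulk RNA, fewer cells of a type and less RNA per cell cannot be told apart.

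Endothelial cells are held together by adhesion proteins at their contacts, such as PECAM1, VE-cadherin (the product of Cdh5), ESAM and claudin-5. They sense vessel-stabilizing angiopoietins through the receptor tyrosine kinase TIE2, encoded by Tek, and its relative TIE1, and they bind ligands of the TGF-beta and BMP family with the co-receptor endoglin. They store von Willebrand factor for hemostasis, carry the sialomucin endomucin on their surface, and keep much of this program under the control of ETS transcription factors such as ERG.

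The bases just upstream of 3 of these genes are shown because ETS factors bind sites built around the letters GGAA, and because they include a gene called higher in the footpad (Emcn), one not called (Eng) and the only one with a negative fold change (Cldn5). The sequences are from RefSeq, build GRCm38.p6, and run 5′ to 3′ on the strand of the gene up to the base before its annotated start. Matches to GGAA on either strand are in capitals, so that a match on the opposite strand reads TTCC. The Emcn window lies at chr3:137340828-137341061 on the plus strand, that of Eng at chr2:32646345-32646594 on the plus strand and that of Cldn5 at chr16:18776597-18776846 on the plus strand.
Emcn: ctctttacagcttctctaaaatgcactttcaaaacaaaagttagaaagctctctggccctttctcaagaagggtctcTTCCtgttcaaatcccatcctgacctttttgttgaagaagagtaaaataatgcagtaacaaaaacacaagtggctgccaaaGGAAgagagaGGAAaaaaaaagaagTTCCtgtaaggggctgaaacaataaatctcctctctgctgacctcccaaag
Eng: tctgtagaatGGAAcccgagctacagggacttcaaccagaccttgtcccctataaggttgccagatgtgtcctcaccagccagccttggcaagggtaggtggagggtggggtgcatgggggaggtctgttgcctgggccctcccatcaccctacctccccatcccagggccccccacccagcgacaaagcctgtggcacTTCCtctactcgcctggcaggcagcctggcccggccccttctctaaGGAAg
Cldn5: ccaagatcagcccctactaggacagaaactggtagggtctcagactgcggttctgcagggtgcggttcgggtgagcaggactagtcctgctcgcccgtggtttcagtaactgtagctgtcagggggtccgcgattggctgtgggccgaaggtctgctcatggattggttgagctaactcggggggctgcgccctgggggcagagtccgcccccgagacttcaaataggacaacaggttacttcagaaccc
The Emcn window, of 234 bases, held 4 matches, and those of Eng and Cldn5, of 250 bases, held 3 and 0. Of 32851 promoter windows of 250 bases in the same table, 93.4% held at least 1 match, 33.4% held 4 or more and 6.55% held none, with a median of 3. The counts for Emcn and Eng therefore lay within the usual range of mouse promoters, and a match in these letters is a description of the sequence only. Among the other genes with a promoter entry, Tie1, called higher in the footpad, held 7 matches in 250 bases. Erg, with a log2 fold change of 1.35, held 0 in the 243 bases up to its annotated start, and Tek held 0 in only 47 bases. In whole windows of 250 bases, which reach into the annotated gene, Tek held 2 and further promoter entries of Erg held 4 and 2. With few genes and windows of unequal length, whether the number of matches goes with the fold change was not tested.

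The libraries held between 46529649 and 66364366 reads on genes, and 3 reads corresponded to between 0.0438 and 0.0673 CPM, the read count relative to the size of the library after edgeR's TMM scaling. Footpad replicate 2 stood apart from the other tumors in RNA of normal tissue. Its 9 listed keratinocyte markers summed to 1398 CPM, against 3.33 to 53.2 CPM in the other 5 tumors, and its 8 skeletal muscle markers summed to 595 CPM, against 8.57 to 77.4 CPM. Hemoglobin and other erythroid genes, a measure of blood in the sample, summed to between 1930 and 36499 CPM and did not separate the sites. The part of these tissues in the endothelial values was not tested, and calls of the 10 genes are given with and without footpad replicate 2.

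Of the 10 endothelial genes, 3 were called higher in the footpad, Pecam1, Tie1 and Emcn. A call required, in the quasi-likelihood test of edgeR, a fold of at least 2 and a p under 0.05 after Benjamini-Hochberg adjustment. Over all genes tested, 2.89% were called higher and 0.872% were called lower, and 0 of the 10 were called lower, with edgeR or with DESeq2. With no adjustment, 9 of the 10 had a p under 0.05 in the direction of higher footpad levels, which 14.8% of all genes reached, and the exception was Cldn5. In 8 of the 10 the 3 footpad tumors all lay above the 3 flank skin tumors, as was the case for 17.5% of all genes. The median log2 fold change of the 10 genes, footpad over flank, was 1.23, beside 0.00 for all genes tested.

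**Figure D1:**
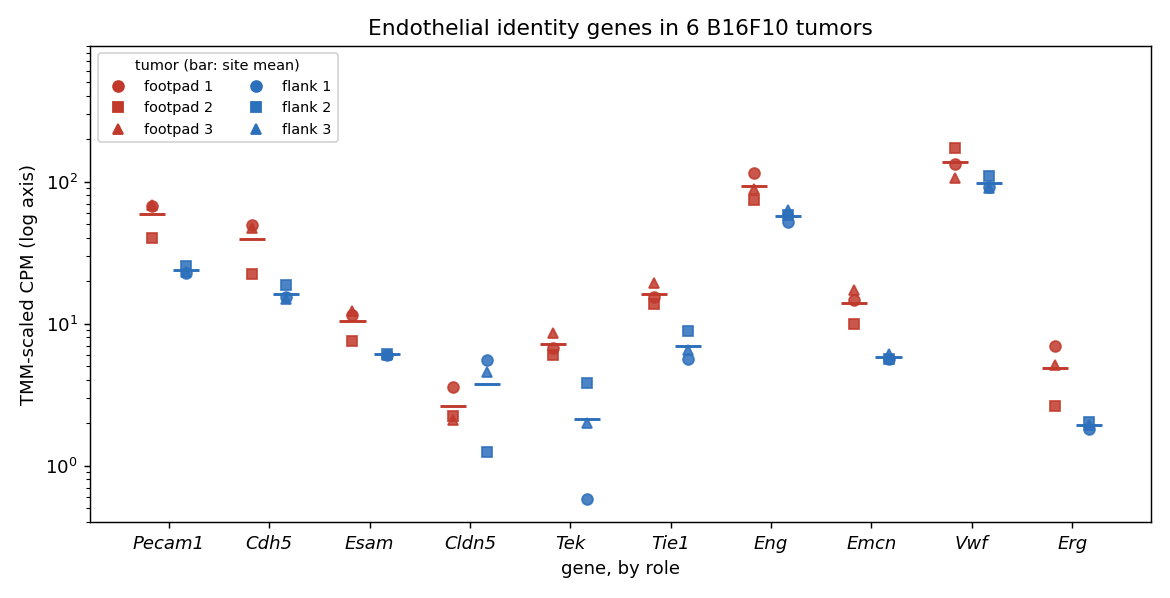
TMM-scaled CPM on a log axis of the 10 endothelial genes, ordered by role, in the 3 footpad tumors (red) and the 3 flank skin tumors (blue), with a marker for each replicate and a bar at each site's mean. The footpad tumors lie above the flank skin tumors for 8 genes, while Vwf and Cldn5 overlap between the sites.

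Pecam1, an adhesion molecule of endothelial contacts that is also found on platelets and leukocytes, is annotated at chr11:106654213-106715281. In the order of their replicate numbers, the footpad tumors held 67.5, 40.1 and 68.8 CPM, against 22.9, 25.4 and 23.0 CPM in those of the flank. The flank skin tumors were nearly equal, and the lowest footpad tumor, replicate 2, was still above all of them. The site means were 58.8 ± 16.2 and 23.7 ± 1.41 CPM (SD, n = 3 each), and the log2 fold change was 1.31 ± 0.22 (SE, edgeR adjusted p = 0.0253).

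Cdh5, whose product VE-cadherin is the main adhesion protein of endothelial adherens junctions, showed 49.3, 22.2 and 47.2 CPM in the footpad, against 15.4, 18.6 and 14.8 CPM in the flank. The sites did not overlap, but footpad replicate 2 lay closer to flank replicate 2 than to the other footpad tumors. Its log2 fold change of 1.28 ± 0.30 missed the threshold (edgeR adjusted p = 0.0536). Without footpad replicate 2 it was 1.57 and passed, with an edgeR adjusted p of 0.0149. Per transcript length, taken from FPKM, the ratio of Pecam1 to Cdh5 lay between 1.64 and 2.20 in the 6 tumors and overlapped between the sites.

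Esam, an immunoglobulin-family molecule of endothelial tight junctions and platelets, had 11.5, 7.60 and 12.3 CPM in footpad replicates 1 to 3. The flank replicates had 6.02, 6.16 and 6.02 CPM. All footpad tumors were above all flank skin tumors, whose SD was 0.0789 CPM. A log2 fold change of 0.79 ± 0.24 was under 2-fold and did not pass (edgeR adjusted p = 0.0944).

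Cldn5, a claudin that seals endothelial tight junctions and is best known from the blood-brain barrier, was the only 1 of the 10 whose fold change pointed the other way. The footpad values were 3.59, 2.25 and 2.08 CPM, and the flank values were 5.57, 1.25 and 4.54 CPM. The highest and the lowest of the 6 values were both from the flank, so that the sites overlapped. At -0.52 ± 0.54, the log2 fold change was smaller than its standard error (edgeR adjusted p = 0.578), and it ranged from -0.94 without flank replicate 2 to -0.14 without flank replicate 1. The flank values rested on 323, 73 and 284 reads and the footpad values on 160, 154 and 102 reads.

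Tek, which encodes the angiopoietin receptor TIE2, had the largest log2 fold change of the 10 genes and the largest standard error. The footpad tumors were at 6.73, 6.04 and 8.62 CPM, and the flank skin tumors were at 0.586, 3.85 and 1.997 CPM. The sites did not overlap, and within the flank the values spread widely, from 34 reads in replicate 1 to 225 reads in replicate 2. Its log2 fold change of 1.73 ± 0.59 did not pass (edgeR adjusted p = 0.125), and leaving out 1 flank skin tumor at a time moved it between 1.28, without replicate 1, and 2.45, without replicate 2.

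Tie1, an orphan receptor kinase that forms complexes with TIE2, was higher in footpad tumors. There it had 15.3, 13.7 and 19.3 CPM, while in the flank it had 5.64, 8.83 and 6.57 CPM, with no overlap. Here footpad replicate 2 was close to replicate 1, and the highest flank value was that of replicate 2. This gave a log2 fold change of 1.20 ± 0.24 (edgeR adjusted p = 0.0375), which is a fold of 2.29.

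The balance of the TIE receptors differed between tumors. The ratio of Tie1 to Tek in FPKM was 2.84, 2.75 and 2.72 in the footpad tumors, 2.89 in flank replicate 2, 4.13 in flank replicate 3 and 12.1 in flank replicate 1. The footpad tumors thus agreed closely, and the flank skin tumors were all above them, replicate 2 slightly and replicate 1 by far. These ratios, like those of the other pairs given here, were chosen after the values were seen and carry no test.

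Eng, the co-receptor endoglin, which carries BMP9 and BMP10 signals to the kinase ALK1, was abundant in every tumor. Footpad replicates 1, 2 and 3 had 115, 74.5 and 88.2 CPM. The flank replicates had 51.6, 58.3 and 62.7 CPM. The sites did not overlap, with footpad replicate 2 again the lowest of its site. A log2 fold change of 0.68 ± 0.18 did not pass (edgeR adjusted p = 0.0713), and even without footpad replicate 2, where the adjusted p was 0.0472, the change of 0.82 stayed under 2-fold. The ratio of Eng to Pecam1 in FPKM was 1.61, 1.78 and 1.23 in the footpad and 2.16, 2.20 and 2.61 in the flank, so that Eng was the less abundant relative to Pecam1 in all 3 footpad tumors. The annotated interval of Eng, chr2:32646595-32682669, overlaps that of Fpgs, so that the assignment of reads in the overlap depended on a counting program and strand setting that are not given in the sources used here. Fpgs had 5266 reads in the 6 tumors together, and Eng had 24853.

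Emcn, a sialomucin typical of capillary and venous endothelium, was higher in footpad tumors. The footpad tumors had 14.6, 9.90 and 17.3 CPM, as opposed to 5.62, 5.68 and 6.09 CPM in the flank, where the SD was 0.254 CPM. The sites did not overlap, and the log2 fold change was 1.27 ± 0.24 (edgeR adjusted p = 0.0351). Of the 5 pairs of genes whose ratio was computed, Emcn and Pecam1 kept the most constant one: Emcn over Pecam1 in FPKM was between 0.490 and 0.593 in all 6 tumors, with overlap between the sites.

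Vwf, which encodes the von Willebrand factor that endothelial cells and megakaryocytes store and release in hemostasis, behaved differently among the footpad tumors. These had 132, 172 and 106 CPM, and the flank skin tumors had 90.8, 109.8 and 90.02 CPM. Footpad replicate 2, the lowest footpad tumor for 8 of the 10 genes, was the highest for Vwf, and footpad replicate 3 was below flank replicate 2. The log2 fold change was 0.49 ± 0.20 (edgeR adjusted p = 0.172) and was 0.29 without footpad replicate 2. The ratio of Vwf to Pecam1 in FPKM was 0.722 and 0.572 in footpad replicates 1 and 3, 1.596 in footpad replicate 2, and between 1.45 and 1.62 in the flank skin tumors. For this pair of genes, footpad replicate 2 resembled the flank skin tumors. That tumor also held the most keratinocyte and muscle RNA. The flank skin tumors, with similar ratios, had keratinocyte marker sums of 3.33, 6.86 and 14.6 CPM. The part of these tissues in the ratio was not tested.

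Erg, the ETS factor that maintains endothelial identity and vessel stability, was measured at 6.91, 2.64 and 5.12 CPM in the footpad, and the flank values were 1.81, 2.02 and 1.93 CPM. The flank skin tumors were again tightly grouped, and footpad replicate 2 was closer to them than to the other footpad tumors without overlapping them. Its log2 fold change of 1.35 ± 0.38 did not pass (edgeR adjusted p = 0.0809). Without footpad replicate 2 it was 1.64, with an edgeR adjusted p of 0.0316.

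The call of single genes thus depended on the tumors used, while the direction did not. Without footpad replicate 2, edgeR called 5 of the 10 genes, Cdh5 and Erg in addition to Pecam1, Tie1 and Emcn, beside 3.62% of all genes. Without footpad replicate 1, footpad replicate 3, flank replicate 1 or flank replicate 3, it called 0 of the 10. In this order, these fits called 26 of 17889, 0 of 17969, 231 of 17753 and 36 of 17876 genes higher. Between 7 and 8 of the 10 had an unadjusted p under 0.05 in the direction of higher footpad levels. Of all genes, 1938, 2061, 2550 and 1943 did so. Without flank replicate 2 only Tie1 was called (edgeR adjusted p = 0.0426), beside 432 of 18092 genes. DESeq2, the tool that the study names, called 6 of the 10 higher, Pecam1, Cdh5, Tek, Tie1, Emcn and Erg, beside 6.71% of all genes. In none of the 14 other fits tried did the fold change of any of the 10 genes change sign.

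**Figure D2:**
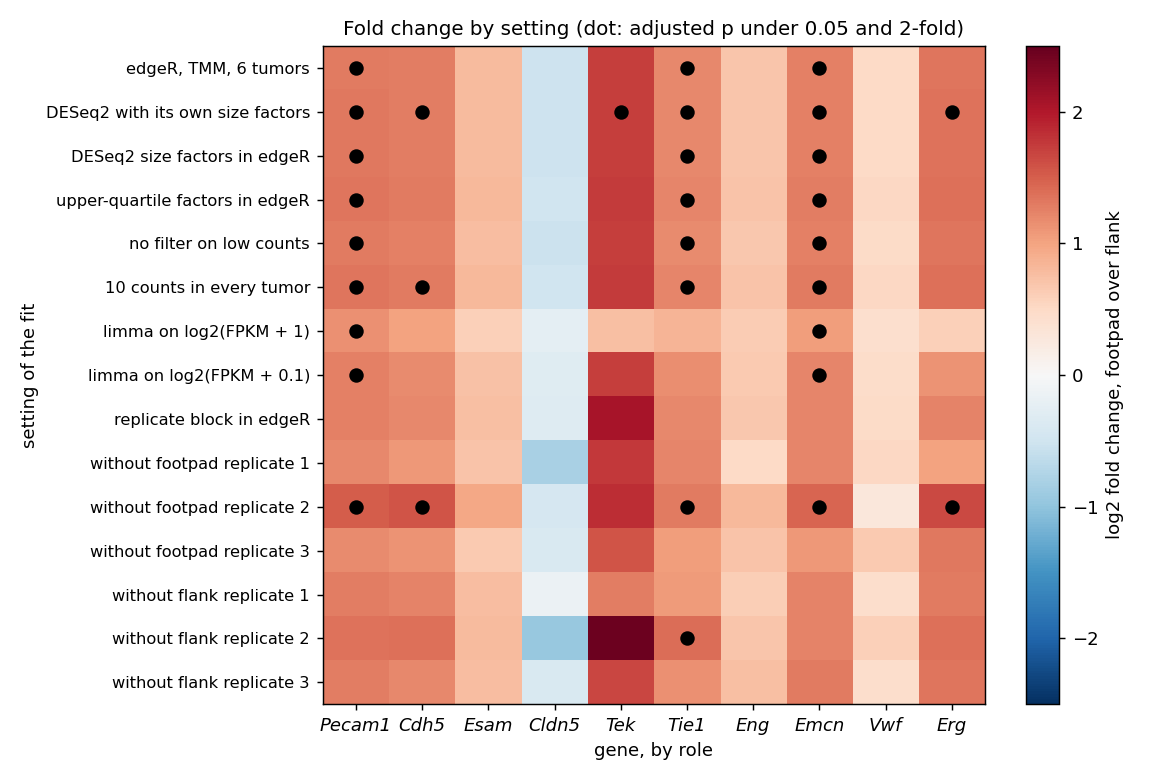
Log2 fold change, footpad over flank (color), of the 10 endothelial genes in 15 fits that differ in tool, scaling, filter, unit or the tumors used, with a dot where the adjusted p was under 0.05 and the fold 2 or more. Pecam1 and Emcn carry a dot in 8 of the 14 alternatives and Tie1 in 7, while Esam, Cldn5, Eng and Vwf carry none and the color of each gene keeps its sign.

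Levels were compared between genes per transcript length, with the FPKM values that the authors deposited. Over the 6 tumors Eng was the highest, at a mean of 19.3 FPKM, and it was above the next gene in 6 of 6 tumors. Vwf and Pecam1 followed at 11.8 and 11.1 FPKM and did not differ beyond their spread, Vwf being the higher of the pair in 4 of 6 tumors. Cdh5, at 6.18 FPKM, and Emcn, at 6.03 FPKM, could not be ranked either, with each the higher in 3 tumors. Esam was at 3.95 FPKM and Tie1 at 2.66 FPKM, each below its upper neighbour in 6 of 6 tumors. Cldn5 had 1.97 FPKM and was below Tie1 in 4 of 6 tumors. At the lower end Erg, at 0.943 FPKM, and Tek, at 0.872 FPKM, did not differ beyond their spread. The co-receptor endoglin thus had the most abundant transcript of the 10, and the transcription factor and the angiopoietin receptor had the scarcest.

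The order changed little between the sites. By mean in the footpad it was Eng (23.7 FPKM), Pecam1 (15.8), Vwf (13.8), Cdh5 (8.71), Emcn (8.53), Esam (4.98), Tie1 (3.69), Cldn5 (1.63), Erg (1.35) and Tek (1.34 FPKM). Pecam1 was above Vwf in 2 of 3 footpad tumors, and Cdh5 was above Emcn, and Erg above Tek, in only 1 of 3. In the flank Vwf (9.86 FPKM) was above Pecam1 (6.46) in 3 of 3 tumors and Cldn5 (2.30) had a higher mean than Tie1 (1.63 FPKM), but was the higher in only 2 of 3 tumors. Vwf and Cldn5 were thus the genes that changed places by site mean, though not in every tumor.

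To describe the genes against each other, the mean log2 CPM of the other 9 was subtracted from each gene within each tumor. On this scale Pecam1 and Emcn had site means 0.32 and 0.27 higher in the footpad, with no overlap between the sites. Eng and Esam had means 0.35 and 0.25 lower in the footpad, given as -0.35 and -0.25 for footpad minus flank, also with no overlap. The other 6 genes overlapped, with differences from -1.43 for Cldn5 to 1.22 for Tek. Cldn5 and Tek were mirror images among the flank skin tumors, Cldn5 being highest in replicate 1 and lowest in replicate 2 and Tek lowest in replicate 1 and highest in replicate 2. Since each value contains the other 9 genes, these differences are a description with no test.

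**Figure D3:**
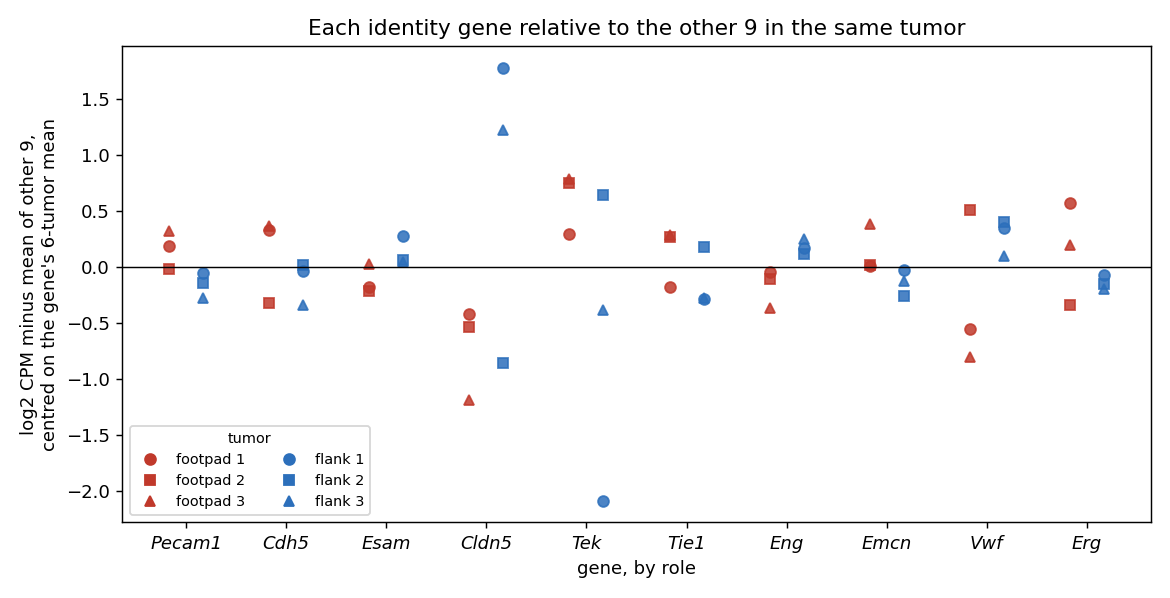
Log2 CPM of each endothelial gene minus the mean log2 CPM of the other 9 in the same tumor, centred on the mean of the 6 tumors, for footpad (red) and flank skin (blue) tumors with a marker for each replicate. Cldn5 and Tek spread the most, from -1.43 for the difference of site means to 1.22, and in opposite order among the flank skin tumors.

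The 10 genes also ranked the tumors within a site. Footpad replicate 2 was the lowest of its site for 8 of the 10, for all but Vwf and Cldn5. In the flank, replicate 2 was the highest for 7 and replicate 1 the lowest for 7. Summed over the 10 genes, the footpad tumors reached between 351 and 422 CPM and the flank skin tumors between 206 and 240 CPM.

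Other genes found throughout the endothelium were read out from the same fit. Of 26, 7 were called higher and 0 lower, 21 had all footpad tumors above all flank skin tumors, and the median log2 fold change was 1.15. The genes called were Robo4, Cd34, Cd93, Ptprb, Plvap, Shank3 and She, with log2 fold changes from 1.09 for Plvap, the diaphragm protein of fenestrated capillaries, to 1.97 for Shank3. Pecam1, Tie1 and Emcn lay within this range. The lowest value was that of Gpihbp1, the capillary anchor of lipoprotein lipase, at -0.19. The VEGF receptor genes Kdr and Flt1, at 0.49 and 0.44, were not called and were close to Vwf. Without footpad replicate 2, 13 of the 26 were called, and without each of the other tumors in turn between 0 and 4. Over the 21 lists outside the 10 genes, described next, 36 of 235 genes tested were called higher with 6 tumors, beside 497 of all 17210 genes. Without footpad replicates 1, 2 and 3 in turn, the numbers were 2 of 238, 54 of 237 and 0 of 238. Without flank replicates 1, 2 and 3 in turn, they were 20 of 238, 38 of 239 and 3 of 238. What these fits called over all genes is given above.

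**Figure D4:**
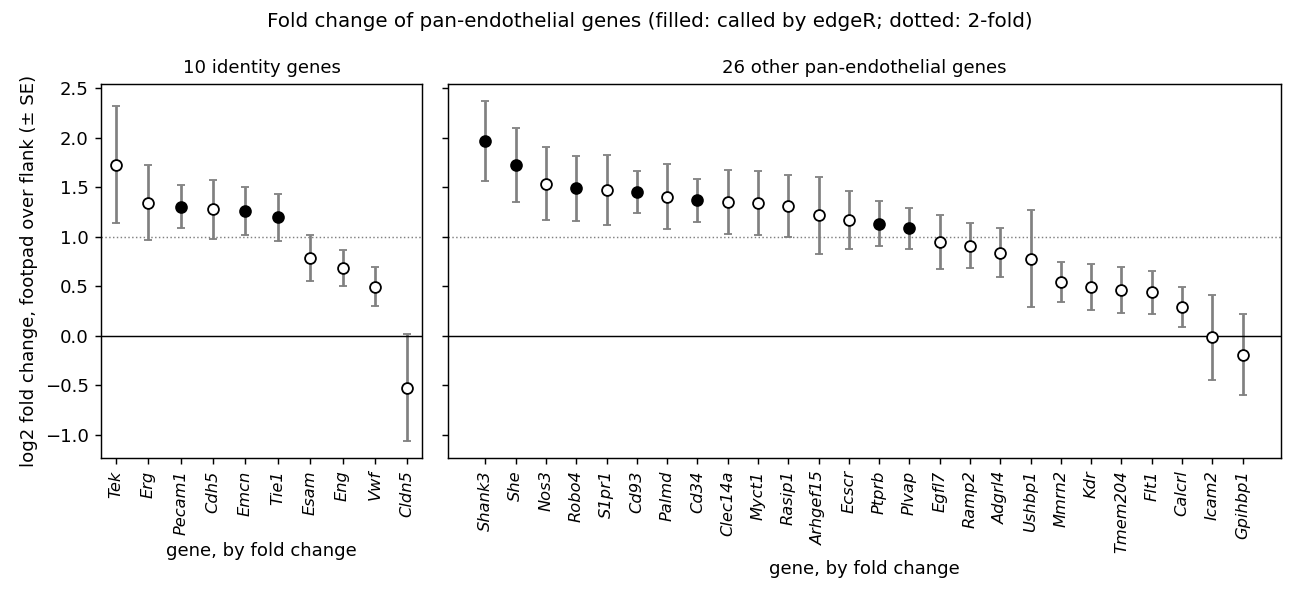
Log2 fold change, footpad over flank, with its standard error for the 10 endothelial genes (left) and 26 other pan-endothelial genes (right), filled where called by edgeR. In both panels most genes lie above 0, 3 of 10 and 7 of 26 are called, and Cldn5 has the lowest value of all 36.

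Partners of these genes in their pathways were read out by role. For Tek and Tie1, 8 ligands, phosphatases and downstream genes were tested. Among them only Ptprb, the phosphatase VE-PTP that acts on TIE2 and VE-cadherin, was called (log2 fold change 1.14 ± 0.23, edgeR adjusted p = 0.0388). Of the ligands, Angpt4 had the highest log2 fold change, at 3.35 (edgeR adjusted p = 0.0718) and at most 0.786 CPM, and Angpt2, the context-dependent antagonist of TIE2, the lowest, at -0.04, with 40.8, 37.1 and 53.2 CPM in the footpad and 63.2, 39.7 and 31.6 CPM in the flank. The median of the 8 was 1.70, and leaving out 1 tumor at a time moved it between 1.33, without flank replicate 3, and 1.99, without footpad replicate 2. Of the 8, 2 were called without footpad replicate 2, 2 without flank replicate 2, and 0 without any other tumor.

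For Eng, 16 of 18 listed genes of the BMP pathway were tested, and Gdf2, the gene of BMP9, had 0 reads in the tumors. The median was 1.02, and 1 was called, Bmp2 (3.30). Without flank replicate 2, 2 were called, and without footpad replicate 1, footpad replicate 3 or flank replicate 3, 0 were called. The lowest was Acvrl1, which encodes ALK1, the kinase partner of endoglin, at -0.55, with 21.7 to 26.5 CPM in the footpad and 54.1, 25.4 and 24.0 CPM in the flank. Eng and its kinase thus had fold changes of opposite sign, neither of which passed the test. Acvrl1 was highest in flank replicate 1, the tumor with the lowest Eng, while the other flank skin tumors lay within the footpad range of Acvrl1.

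For the junction proteins Cdh5, Esam and Cldn5, 17 of 18 listed genes were tested, with a median of 0.25, or 0.14 without flank replicate 1. Cldn1, a claudin that is also abundant in epidermis, was called higher (3.60), and Magi1, a junctional scaffold, was called lower (-1.16). Genes of the adherens and tight junction are shared by many cell types, and their median lay far below that of Pecam1 and Cdh5. For Vwf, 17 genes of the Weibel-Palade body and hemostasis had a median of 0.41, close to the 0.49 of Vwf itself, with the lowest value, -0.86, for Rab27a, a GTPase of secretory granules and of melanosomes. Ece1, which encodes an endothelin-converting enzyme, was called higher (1.68 ± 0.16, edgeR adjusted p = 0.00705). For Erg, 15 of 16 other endothelial transcription factors had a median of 1.15, from -0.67 for Gata2 to 2.31 for Hhex, the only 1 called.

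Genes of vessel subtypes were read out in the same way. Arterial and tip cell genes had a median of 0.87, from -0.74 for Esm1 to 2.15 for Apln, and 2 of 18, Apln and Unc5b, were called. Of the 18, 4 were called without footpad replicate 2 and 0 without footpad replicate 1 or footpad replicate 3. Of 8 venous genes tested, with a median of 1.26, 0 were called by edgeR and 1 by DESeq2, with 2 at an unadjusted p under 0.05. Without flank replicate 2, edgeR called 1 and the median was 2.58. They ranged from -0.49 for Nr2f2 to 1.93 for Sele, and the most abundant, Nrp2 and Ephb4, had 0.94 and 0.39. Among 9 lymphatic markers, with a median of 0.94, or 0.58 without flank replicate 1, and a lowest value of -0.06 for Vegfc, Lyve1 was called higher (3.28 ± 0.31, edgeR adjusted p = 0.00677). Ccl21a was called as well, with 26, 26 and 23 reads in the footpad tumors and 0 reads in every flank skin tumor, so that, with a limit of 3 reads in each flank library, its footpad mean was at least 9.49-fold higher. The 10 genes include none that is restricted to lymphatic vessels, and Pecam1, Cdh5 and Tie1 are made there too.

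Of the cells and matrix around vessels, 14 mural cell markers had a median of 0.92, or 0.36 without footpad replicate 2 and 1.44 without flank replicate 2, from -1.10 for Kcnj8 to 2.12 for Anpep, and Pdgfrb, Cspg4 and Acta2 were called. The 9 genes of the vessel basement membrane had a median of 1.29, near that of the endothelial genes, and 6 were called, Col4a1, Col4a2, Lamb1, Nid1, Nid2 and Hspg2, with Lamb1 the highest at 1.98 and Lama4 the lowest at 0.23. Without footpad replicate 1, footpad replicate 3 or flank replicate 3, 0 of the mural cell markers and 0 of the basement membrane genes were called. Basement membrane genes are also made by fibroblasts and melanoma cells.

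**Figure D5:**
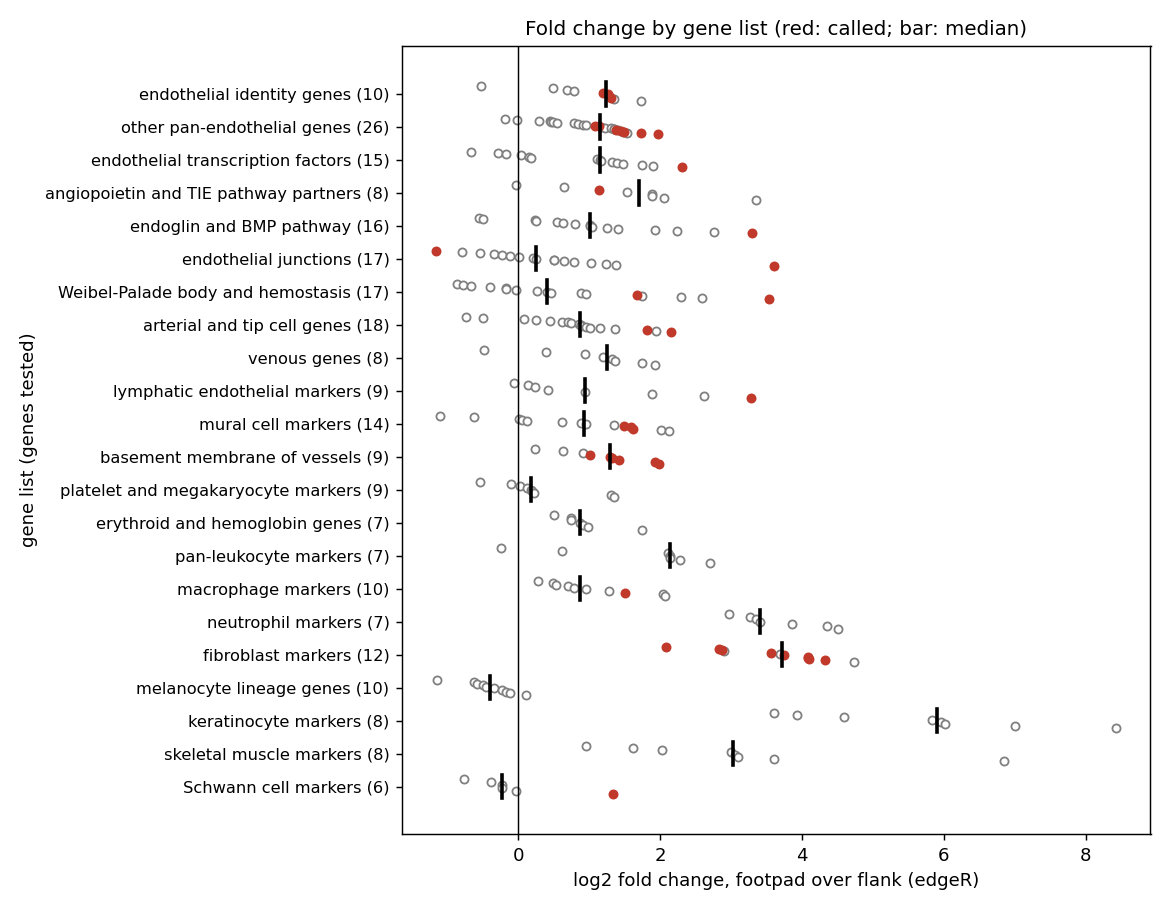
Log2 fold change, footpad over flank, of the tested genes of each list, red where called by edgeR, with a bar at the list's median and the number of genes tested in parentheses. The endothelial identity genes and the other pan-endothelial genes have medians of 1.23 and 1.15, the fibroblast markers one of 3.71 and the melanocyte genes one of -0.40, and Ccl21a, which had no reads in the flank, is left out.

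Markers of some other cells were also higher in the footpad, while those of others were not. All 12 fibroblast markers had the footpad tumors above the flank skin tumors, 9 were called higher, their median was 3.71 and they summed to between 3006 and 4258 CPM in the footpad and between 88.7 and 460 CPM in the flank. Their lowest median without any 1 tumor was 3.29, although the number called ranged from 0, without footpad replicate 1, footpad replicate 3 or flank replicate 3, through 3, without flank replicate 1, to 12, without flank replicate 2. The 10 melanocyte lineage genes had a median of -0.40, with 0 called by edgeR or DESeq2 and 1 at an unadjusted p under 0.05, and summed to between 10113 and 18758 CPM in the footpad and between 14902 and 25657 CPM in the flank. This median was -0.78 without footpad replicate 2, where 1 gene was called lower and 6 had an unadjusted p under 0.05, and it was -0.15, -0.24 and -0.20 without footpad replicate 1, footpad replicate 3 and flank replicate 1. The fold changes of the endothelial genes were thus smaller than those of the fibroblast markers and opposite in sign to those of most melanocyte genes. How far the share of host cells in each tumor entered the endothelial values was not tested.

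Pecam1, Esam, Vwf and Tek are also found on cells of blood or marrow, so blood cell markers are given beside them. The 9 platelet and megakaryocyte markers tested had a median of 0.17, which had no stable sign: it was -0.23, -0.05 and -0.24 without footpad replicate 1, footpad replicate 3 and flank replicate 3, and 0.38 and 1.11 without footpad replicate 2 and flank replicate 1. The 10 listed summed to between 13.4 and 27.0 CPM in the footpad and between 2.86 and 19.4 CPM in the flank. Of the 9 tested, edgeR called 0 and DESeq2 1, and 1 had an unadjusted p under 0.05 with edgeR. The 7 pan-leukocyte markers had a median of 2.13, with 51.5 to 167 CPM in the footpad and 34.3 to 63.4 CPM in the flank, and of these edgeR called 0 and DESeq2 4, while 5 had an unadjusted p under 0.05. Here edgeR called 4 without footpad replicate 2 and 1 without flank replicate 2. The 10 macrophage markers had a median of 0.87, with 248 to 278 CPM and 34.3 to 184 CPM, and Cd68 was called. Without flank replicate 1 the macrophage median was 0.43, and without flank replicate 2 it was 1.48. The 7 neutrophil markers had a median of 3.41, with 8.01 to 386 CPM and 4.89 to 31.1 CPM, and footpad replicate 2, the lowest footpad tumor for most endothelial genes, was also the lowest for them. Of the 7, edgeR called 0 and DESeq2 3, and 7 had an unadjusted p under 0.05. With edgeR, 6 of the 7 were called, with a median of 3.98, without footpad replicate 2. The remaining lists had medians of 5.90 for 8 keratinocyte markers, 3.03 for 8 skeletal muscle markers, 0.87 for 7 erythroid genes and -0.23 for 6 Schwann cell markers. Of these genes only Pmp22, a Schwann cell marker, was called by edgeR. DESeq2 called 2 of the keratinocyte markers, 0 of the muscle markers and 0 of the erythroid genes, for which 7, 1 and 0 had an unadjusted p under 0.05 with edgeR. Several of these medians rested on 1 tumor. Without footpad replicate 2 the keratinocyte median was 2.30 and the muscle median -0.38, with 2 of 8 muscle markers above 0, and without flank replicate 2 the muscle median was 5.50. The erythroid median was -0.02 without footpad replicate 1, 1.35 without footpad replicate 2, 2.98 without flank replicate 1, and 0.45 and 0.38 without flank replicates 2 and 3. The Schwann cell median was 0.03, -0.36 and -0.49 without flank replicates 1, 2 and 3. The part of these cells in the endothelial values was not tested.

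Among all named genes outside the 10, likeness to their mean profile was measured as the root mean square difference of centred log2 CPM over the 6 tumors. The closest were Fam129b (0.0447), Metrnl (0.0543), Armc7 (0.0775), Junb (0.0820) and Rnd3 (0.0853). Of the 50 closest, 3 were in the lists, the arterial and tip cell genes Efnb2, Dll4 and Hey1. Among the 10 themselves, Esam was the closest to the mean of all 10, at 0.148, followed by Emcn and Pecam1 at 0.176 and 0.178, and Tek and Cldn5 were the farthest, at 0.912 and 0.988. Each of the 10 is part of the mean it is compared with.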

How the data were processed

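Total RNA of 3 footpad and 3 flank skin B16F10 tumors was prepared as stranded libraries. Per the labels and the study's methods, the authors checked reads with FastQC 0.11.7, trimmed them with Trimmomatic and aligned them with HISAT2 2.1.0 to mm10. The program that counted reads, its strand setting and its handling of reads that match several genes are not given in the sources used here. The authors deposited integer read counts for each gene, not normalized, and FPKM values, in which they corrected for depth and transcript length. Groups were taken from the labels, and p-values measure the spread between tumors, which the labels do not tie to mice.

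Counts of the whole table were fitted with edgeR 4.0.16 under R 4.3.3 (TMM factors, filterByExpr at its defaults, glmQLFit and glmQLFTest, Benjamini-Hochberg adjustment over 17210 genes). Calls required a fold of at least 2 and an adjusted p under 0.05. Standard errors were approximated as the log2 fold change over the square root of F. Log2 CPM used a prior count of 1. Total reads per tumor were 46529649 to 66364366, and the common biological coefficient of variation was 0.338. Tumors of 1 site differed by more than sampling noise, with a chi-square of 62.3 to 578 per gene.

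Alternatives were DESeq2 1.42.0, limma 3.58.1 on log2(FPKM + 1) and log2(FPKM + 0.1), DESeq2 and upper-quartile scaling in edgeR, no filter, a minimum of 10 counts in every tumor, the replicate number as a block, no fold threshold, FPKM for the relative levels, and each tumor left out. The fits were tested on simulated data. The 10 genes, the 21 other gene lists and the tests were chosen with earlier results of these data known, and the lists were written from general knowledge. The text names the 10 genes, listed genes that were called, the extremes of each list of vessel genes, the most abundant genes of some lists without a call, and the 5 genes closest in profile, and 1 listed gene is not reported here. Kdr and Flt1 and the ratios between genes were chosen after their values were seen. Sequences and coordinates are from RefSeq, GRCm38.p6, in which 6 of the 10 genes had a promoter entry. Python 3.11.15 with pandas 2.3.3, numpy 2.4.6 and matplotlib 3.10.9 was used for tables and plots.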

Additional observations from a re-analysis of the deposited data

How the results depend on the processing

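With DESeq2, 6 of the 10 endothelial genes, 81 genes of the other lists, and 1154 higher and 352 lower genes of the whole table were called, against 3, 36, 497 and 150 with edgeR. Limma on log2(FPKM + 1) called 271 higher and 95 lower genes. Leaving out 1 tumor at a time gave 0 to 5 of the 10, 0 to 54 genes of the other lists, and 0 to 639 higher and 0 to 197 lower genes of the whole table. The lowest of these numbers came without footpad replicate 3 and the highest without footpad replicate 2. Without footpad replicate 3, 7 of the 10 had an unadjusted p under 0.05 in the direction of higher footpad levels, as did 2061 of 17969 genes. With the replicate number as a block, edgeR called 0 of the 10 and 0 genes of the other lists. It called 0 higher and 0 lower genes of the whole table. With this block, 9 of the 10 had an unadjusted p under 0.05 in the direction of higher footpad levels, as did 2125 of 17210 genes. The labels do not say that a number marks a mouse, so the tumors were not treated as paired. Deviations from the site means correlated at 0.0544, -0.0965 and -0.115 for tumors with the same number, and at -0.199 to 0.264 for the others. With 3 tumors per site and numbers not tied to mice, these correlations cannot decide whether tumors shared mice. Fits with a block or with 5 tumors have fewer degrees of freedom, but the cause of the differences in calls between fits was not tested. Other scalings and filters, limma on log2(FPKM + 0.1), and an adjusted p without a fold threshold moved the number of the 10 called to between 2 and 4. Relative to the other 9 genes, values from FPKM kept the sign of those from CPM for all 10. As to depth, the scarcest value of the 10 genes, that of Tek in flank replicate 1, rested on 34 reads.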

Other observations

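Flank replicate 1, the lowest flank skin tumor for 7 of the 10 endothelial genes, held the highest level of all 6 tumors for several other vessel genes, which were picked after their values were seen. Acvrl1, the gene of the kinase ALK1, was at 54.1 CPM there and between 21.7 and 26.5 CPM in the other tumors. Esm1, a marker of endothelial tip cells, was at 30.6 CPM against 7.22 to 13.6 CPM, and Gpihbp1 of capillary endothelium at 18.8 CPM against 5.87 to 10.1 CPM. The pericyte potassium channel gene Kcnj8 was at 16.6 CPM against 3.68 to 6.31 CPM, and Ndufa4l2, which is also induced in hypoxia, was at 14.2 CPM against 0.831 to 5.28 CPM. Angpt2, the ligand of TIE2, was at 63.2 CPM against 31.6 to 53.2 CPM, and Tek was at its lowest in the same tumor. A count of this kind over all 6 tumors was not made. The 129 tested genes of the vessel lists outside the 10, which leave out mural cell markers such as Kcnj8 and Ndufa4l2, were ranked within each site only. Among the flank skin tumors, flank replicate 1 was the highest for 41 of them and the lowest for 65.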
